A study of Mus musculus with 16 samples.

Results

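The genes described here encode the enzymes and the transporter through which activated monocytes turn arginine, tryptophan and cis-aconitate into effector molecules. They were chosen by name: Nos2, Arg1, Arg2, Ass1, Slc7a2, Gch1, Ido1 and Acod1. Of these 8 genes, 7 were listed among the 13085 genes of the table of gene expression, and Arg1 was not analysed here. All 7 passed the filter on low values, Nos2 and Ido1 only through their stimulated libraries, so that a difference was built into their passing. The samples were monocytes of C57BL/6 mice that were either NFAM1+/+ or NFAM1-/-, the latter carrying a Cas9 deletion of exons 2 and 3 of Nfam1, a receptor gene with an ITAM signalling motif. The labels call the cells PBL Monocyte, while the study's methods describe isolation from bone marrow. The cells were cultured for 6 or 24 h without stimulus, or were pretreated with IFN-γ and then given MegaCD40L, a multimeric CD40 ligand, at 1 ug/mL. RNA sequencing gave 16 libraries, 4 for each stimulus and time. The labels and the methods differ on the dose of IFN-γ. Libraries are called by the number in their titles. At 6 h every genotype and stimulus had 2 libraries. At 24 h the genotype in the title and the genotype tag disagreed for 4 of the 8 libraries, so genotypes were pooled in the comparisons of stimulus and time.

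Nitric oxide is made from arginine by the inducible synthase that Nos2 encodes. Slc7a2 (CAT2) brings cationic amino acids such as arginine into the cell, Ass1 (argininosuccinate synthase) takes part in recycling citrulline to arginine, and Gch1 (GTP cyclohydrolase) opens the synthesis of tetrahydrobiopterin, the cofactor of nitric oxide synthases. Arginases, of which Arg2 is the mitochondrial form, use the same arginine to make ornithine and urea. Ido1 (indoleamine 2,3-dioxygenase) opens the kynurenine pathway by oxidizing tryptophan, and Acod1 (aconitate decarboxylase) makes itaconate from cis-aconitate of the tricarboxylic acid cycle. Interferon-γ, acting in part through IRF1, and CD40, acting through NF-κB, are textbook inducers of this programme in mouse myeloid cells.

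Of the 7 listed genes, 3 had a promoter entry in the RefSeq table, and those windows are shown first. Each has 250 bases before and 50 bases after the transcription start on build GRCm38.p6, which is not the build of the deposited files. They lie at chr14:103046762-103047061 on the plus strand for Acod1, chr14:47189364-47189663 on the minus strand for Gch1 and chr2:31470020-31470319 on the plus strand for Ass1. Capitals mark matches to any of 4 motifs searched on both strands: TTCNNNGAA (the GAS core), GAAANNGAA (an ISRE core), GGNNNTTCC (an outline of κB sites) and TATAAA.
Acod1: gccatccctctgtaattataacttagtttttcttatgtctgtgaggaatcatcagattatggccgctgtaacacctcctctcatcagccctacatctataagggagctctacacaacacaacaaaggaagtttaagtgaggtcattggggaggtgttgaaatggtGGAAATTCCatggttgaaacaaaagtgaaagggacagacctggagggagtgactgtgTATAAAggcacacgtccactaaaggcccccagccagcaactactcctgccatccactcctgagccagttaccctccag
Gch1: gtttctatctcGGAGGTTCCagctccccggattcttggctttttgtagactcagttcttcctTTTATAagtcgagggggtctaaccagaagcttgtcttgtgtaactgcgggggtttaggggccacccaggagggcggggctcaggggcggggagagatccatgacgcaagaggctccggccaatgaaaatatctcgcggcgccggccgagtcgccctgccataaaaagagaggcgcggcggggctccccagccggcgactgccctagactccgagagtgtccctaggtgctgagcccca
Ass1: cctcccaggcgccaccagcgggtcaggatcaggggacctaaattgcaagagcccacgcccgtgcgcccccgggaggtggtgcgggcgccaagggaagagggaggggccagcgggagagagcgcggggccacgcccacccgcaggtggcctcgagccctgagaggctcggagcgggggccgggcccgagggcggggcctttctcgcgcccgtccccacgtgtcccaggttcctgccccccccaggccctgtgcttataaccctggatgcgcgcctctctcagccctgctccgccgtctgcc
The Acod1 window held 1 match to the κB outline, GGAAATTCC, starting 85 bases before the transcription start, and 1 TATAAA starting 28 bases before it. In the Gch1 window the κB outline was matched by GGAGGTTCC starting 239 bases before the start, and TATAAA was matched on the opposite strand. Ass1 had no match to these letters in this window. Among 32841 promoter windows of the same length, 18.5% held the κB outline, 13.6% TATAAA, 8.56% the ISRE core and 8.30% the GAS core, so a match is common and is given as a description of the sequence. Nos2, Slc7a2, Arg2 and Ido1 are named only.

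Between 48295939 and 88514341 reads a library fell on the listed genes. Nfam1 itself, counted over the whole gene and so including exons that the deletion leaves, was at 408 and 432 CPM (reads scaled to library size) in the unstimulated NFAM1+/+ libraries at 6 h and at 299 and 321 CPM in the NFAM1-/- ones, whereas with stimulus the genotypes overlapped at 127 to 135 CPM. At 24 h it was at 391 to 495 CPM without and 201 to 271 CPM with stimulus. Of the monocyte markers, 10 of 10 were listed, with a summed level of 28220 to 33180 CPM in unstimulated and 8604 to 11820 CPM in stimulated libraries. Lyz2 carried most of the unstimulated sum, at 15690 to 23260 CPM, while Ly6c2 was higher with stimulus, at 2125 to 2965 CPM against 345 to 530 CPM. Of other cell types, 10 of 10 neutrophil genes were listed and summed to 668 to 1178 CPM in unstimulated cells at 24 h against 87.6 to 358 CPM in the other libraries, with Ly6g at no more than 2.22 CPM anywhere. Only 2 of 6 T cell genes (sum at most 6.81 CPM) and 1 of 5 NK cell genes were listed. That NK cell gene, Klrk1, was at 8.70 to 17.5 CPM without stimulus, 391 to 434 CPM with stimulus at 6 h and 53.4 to 126 CPM with stimulus at 24 h. At 6 h the sums of 3 other lists were lower without stimulus than with it, at 8.46 to 11.8 against 124 to 167 CPM for 5 of 6 macrophage genes, 134 to 153 against 311 to 371 CPM for 3 of 5 B cell genes and 45.7 to 70.7 against 124 to 163 CPM for 6 of 6 myeloid progenitor genes. Ighm carried the B cell rise, at 129.5 to 148.2 against 309.7 to 369.5 CPM, while Cd79a and Cd79b were lower with stimulus. Kit carried the progenitor rise, at 2.545 to 5.974 against 90.69 to 115.2 CPM. Cd34 was lower with stimulus, and Mpo, Elane, Prtn3 and Ctsg overlapped. These marker levels moved with stimulus or time, and their part in the results was not tested. In bulk libraries, fewer cells of a type and less RNA per cell cannot be told apart.

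The first comparison asks what IFN-γ plus CD40L did to these genes at each time. Of the 7 genes, 6 rose at 6 h and the same 6 rose at 24 h, and Arg2 was the exception at both times. Nos2 and Ido1 passed the filter only through their stimulated libraries, so a difference was built into their part of this count and their ranks. A gene is called here when the adjusted p of limma is below 0.05 and the change is at least 2-fold; by that rule 18.9% of all genes tested rose at 6 h and 14.6% at 24 h, and 20.3% and 18.2% fell. Rises were 48.2% of the calls at 6 h, and 21.7% when each library was scaled by its own total, under which the median log2 fold change of all genes was -0.86 in place of -0.125. Acod1 reached the highest level per length of transcript at both times, and Ido1 was the gene whose rise depended most on time.

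**Figure D1:**
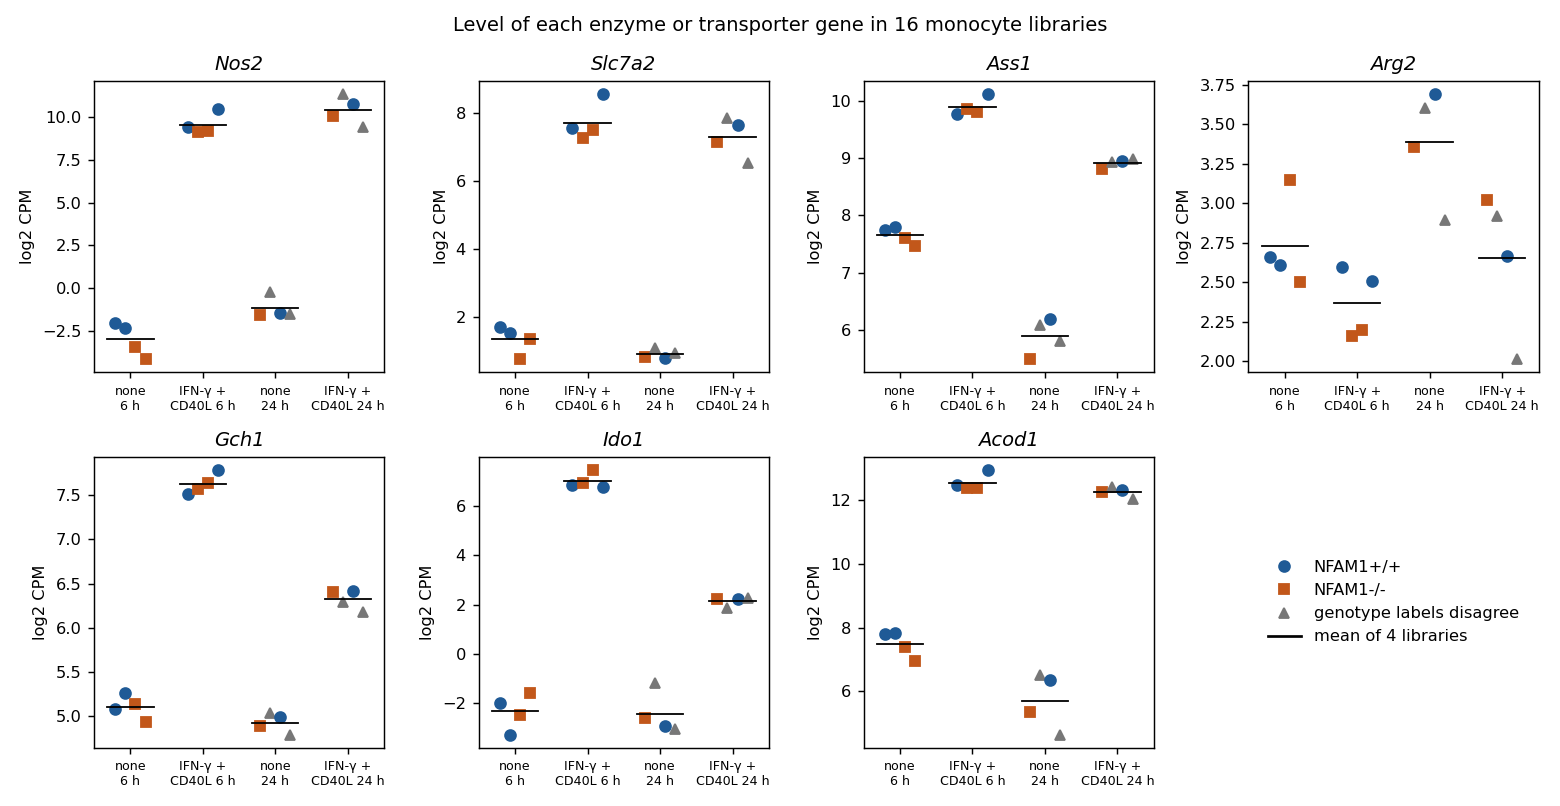
Level of each gene in all 16 libraries. The vertical axis is log2 CPM, each point is 1 library, symbols give the genotype (circles NFAM1+/+, squares NFAM1-/-, triangles where title and tag disagree), and bars are means of 4 libraries. The stimulated libraries lie above the unstimulated ones at both times for every gene but Arg2, and Ido1 falls from 108 to 175 CPM at 6 h to 3.62 to 4.88 CPM at 24 h.

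Nos2 was almost absent without stimulus. At 6 h the unstimulated libraries held 0.200 and 0.244 CPM in NFAM1+/+ cells and 0.0568 and 0.0914 CPM in NFAM1-/- cells, from 6 to 27 reads each. With stimulus, library 26 of NFAM1+/+ cells was at 1465 CPM, library 10 of the same genotype at 699 CPM, and the NFAM1-/- libraries at 561 and 602 CPM. The groups lie far apart, and library 26 stands apart from the other stimulated libraries. The log2 fold change was 12.57 ± 0.48 (SE, n = 4 against 4; adjusted p = 1.13e-13 by limma), the rank 2 rise of 12306 genes tested. At 24 h the 4 unstimulated libraries were at 0.342, 0.351, 0.367 and 0.858 CPM and the stimulated ones at 696, 1094, 1759 and 2623 CPM. The change was 11.60 ± 0.48 on the log2 scale (adjusted p = 5.45e-13), again rank 2. With unstimulated levels this low the size of both Nos2 values depends on the constant added before the log, and with 1 CPM added they were 9.39 and 9.87, so that their order turned.

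Slc7a2, which supplies the substrate, rose strongly with stimulus at both times, as Nos2 did. Its unstimulated levels were 1.71, 2.54, 2.90 and 3.29 CPM at 6 h and 1.72 to 2.14 CPM at 24 h. Stimulated libraries held 153, 180, 187 and 376 CPM at 6 h, the highest being library 26 as for Nos2, and 91.7, 143, 201 and 232 CPM at 24 h. Among the stimulated libraries at 24 h the order was the same for Slc7a2 and Nos2, with library 56 highest, then 57, 55 and 58. The log2 fold changes, 6.37 ± 0.28 at 6 h and 6.38 ± 0.28 at 24 h, were nearly equal (adjusted p = 1.14e-12 and 1.74e-12, limma).

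Ass1, the citrulline recycling enzyme, was already well expressed in unstimulated cells. It was at 177 to 222 CPM without and 869 to 1109 CPM with stimulus at 6 h, and at 45.2 to 73.1 CPM and 447 to 508 CPM at 24 h. No library at 24 h reached the level of any 6 h library of the same condition, while the rise with stimulus was 2.23 ± 0.12 (log2) at 6 h and 3.03 ± 0.12 at 24 h (adjusted p = 1.69e-11 and 3.98e-13, limma). Gch1, the first enzyme of cofactor synthesis, was at 30.6 to 38.5 CPM without and 183 to 221 CPM with stimulus at 6 h. At 24 h its unstimulated range was 27.7 to 32.9 CPM and its stimulated range 72.7 to 85.1 CPM. Its log2 fold change was 2.53 ± 0.080 at 6 h and 1.40 ± 0.080 at 24 h (adjusted p = 9.91e-15 and 5.21e-11, limma).

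Arg2, which competes for arginine, was low in all libraries and did not pass the rule. Without stimulus it was at 5.66 to 8.86 CPM at 6 h and 7.42 to 12.9 CPM at 24 h, and with stimulus at 4.46 to 6.04 CPM and 4.04 to 8.10 CPM. The groups overlap at both times. Its log2 fold change was -0.36 ± 0.22 at 6 h (95% interval -0.83 to 0.10, adjusted p = 0.138, limma) and -0.73 ± 0.22 at 24 h (interval -1.20 to -0.27, adjusted p = 0.00608), the latter under the 2-fold limit. Scaling each library by its own total moved these values to -1.10 and -1.07, past the limit, beside median genes at -0.86 and -0.32, so that relative to the median gene Arg2 was lower by less than 2-fold there too.

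Ido1, the entry to the kynurenine pathway, differed most between times. Unstimulated libraries held 0.104 to 0.337 CPM at 6 h and 0.121 to 0.444 CPM at 24 h, from 6 to 38 reads. With stimulus at 6 h the NFAM1+/+ libraries were at 108 and 113 CPM and the NFAM1-/- libraries at 121 and 175 CPM. By 24 h the stimulated libraries were at 3.62, 4.69, 4.74 and 4.88 CPM, still all above the unstimulated ones. The log2 fold change was 9.32 ± 0.38 at 6 h (rank 51 of 12306) and 4.58 ± 0.38 at 24 h (rank 272; adjusted p = 3.31e-13 and 7.31e-09, limma). With 1 CPM added before the log the Ido1 values were 6.72 and 2.17, and both remained past the rule.

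Acod1, which makes itaconate, was the most abundant of the genes once cells were stimulated. It was at 122 and 167 CPM in NFAM1-/- and 223 and 225 CPM in NFAM1+/+ cells without stimulus at 6 h, and at 25.1, 40.7, 81.3 and 90.6 CPM at 24 h. With stimulus the 6 h libraries held 5341, 5353, 5657 and 7851 CPM, the last being library 26, and the 24 h libraries 4223 to 5470 CPM. The stimulated levels overlap between times while the unstimulated ones do not. Its log2 fold change was 5.06 ± 0.31 at 6 h and 6.54 ± 0.31 at 24 h (adjusted p = 8.44e-11 and 3.54e-12, limma).

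**Figure D2:**
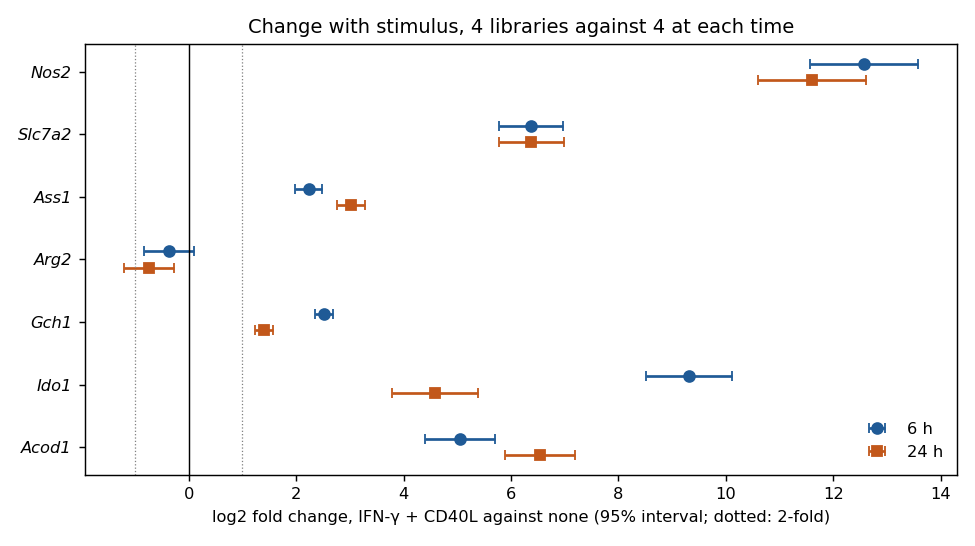
Log2 fold change with IFN-γ plus CD40L for each gene at 6 h (circles) and 24 h (squares), with 95% intervals from limma over 4 libraries against 4. Dotted lines mark 2-fold. Nos2 shows the largest change at both times, 12.57 and 11.60, the Ido1 change drops from 9.32 to 4.58, and the Arg2 values lie between 0 and the lower 2-fold line.

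Levels can be set beside each other only per length of transcript, here as mean CPM per kilobase of exons in GENCODE vM21, an annotation of another build than the files, so that lengths are approximate. With stimulus at 6 h the order was Acod1 at 2307, Ass1 at 394, Nos2 at 189, Ido1 at 71.0, Gch1 at 31.8, Slc7a2 at 24.5 and Arg2 at 3.64 CPM per kilobase, with the libraries of Gch1 and Slc7a2 overlapping. At 24 h Nos2 had passed Ass1 (350 against 201 CPM per kilobase), though their libraries overlapped, and Ido1, at 2.46, was below Arg2, at 4.56. Without stimulus Ass1 and Acod1 led at both times, at 83.7 and 70.3 CPM per kilobase at 6 h and 25.1 and 22.7 at 24 h, and overlapped each other.

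The second comparison asks how the response differed between 6 and 24 h. Without stimulus Nos2 rose and Ass1 and Acod1 fell, against 12.8% and 7.58% of all genes tested that rose and fell. The level of Ass1 changed by -1.76 ± 0.12 on the log2 scale and that of Acod1 by -1.77 ± 0.31 (adjusted p = 1.98e-09 and 8.99e-05, limma), and neither gene's libraries overlapped between times. The Nos2 change, 1.80 ± 0.48 (adjusted p = 0.00331), rests on levels below 1 CPM: it was 1.87 with an adjusted p of 0.549 under voom weights and 0.35 with an adjusted p of 0.348 when 1 CPM was added before the log. In stimulated cells Ido1 and Gch1 fell, by 4.84 ± 0.38 and 1.31 ± 0.08 on the log2 scale (adjusted p = 3.70e-09 and 1.65e-10), among 16.8% of all genes that did. The Ass1 level differed by -0.96 ± 0.12 (adjusted p = 1.37e-06), just under 2-fold, with no overlap. Nos2, Slc7a2, Acod1 and Arg2 had adjusted p of 0.12 to 0.40 in that comparison and overlapped between times. The Nos2 difference, 0.84 ± 0.48, passed the rule without library 26 (1.15) and without library 58 (1.16), and under quantile scaling (1.24) and own totals (1.21), while that of Gch1 was then under 2-fold (-0.97 and -0.93).

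The difference of the responses was tested directly as the fold change at 24 h minus that at 6 h. It was -4.73 ± 0.54 for Ido1, -1.13 ± 0.11 for Gch1 and 1.48 ± 0.44 for Acod1 on the log2 scale (adjusted p = 7.97e-07, 2.01e-07 and 0.00642, limma). Of all genes tested, 18.1% had a smaller and 13.4% a larger fold change at 24 h by the same rule. The larger Acod1 response went with the lower unstimulated level at 24 h, since its stimulated level differed by -0.29 ± 0.31. For Ass1 the difference was 0.79 ± 0.17 (adjusted p = 0.000614), under 2-fold. Quantile scaling and own totals moved Ass1 to 1.46 and 1.19, past the limit, and Gch1 to -0.79 and -0.73, short of it. Slc7a2, at 0.0079 ± 0.40 (95% interval -0.84 to 0.86), and Nos2, at -0.97 ± 0.67 (interval -2.39 to 0.45), were not distinguishable from no difference. Time and any separate handling of the 6 h and 24 h libraries cannot be told apart.

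The third comparison is between genotypes, the question the study was built on. At 6 h, where the labels agree, the same 6 genes rose with stimulus in NFAM1+/+ and in NFAM1-/- cells, beside 19.6% and 18.8% of all genes. No gene of the group was called between genotypes by limma, without stimulus (0.0661% of all genes tested), with stimulus (0.033%) or for the difference of the responses (0%; 846 genes at an unadjusted p below 0.05, none of them of this group). At an unadjusted p below 0.05, Nos2 and Acod1 were lower in NFAM1-/- cells without stimulus, and Nos2 and Slc7a2 with it, where 1058 and 1522 of the 12111 genes tested were at that level. The study used several mice of each genotype, but how they were divided among the libraries is not given in the sources used here, so whether p-values measure the spread between animals or a technical one is not known.

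Without stimulus at 6 h both NFAM1-/- libraries lay below both NFAM1+/+ libraries for Nos2 and for Acod1, with the values given above. That order also held for Ass1 and Slc7a2. The differences, NFAM1-/- minus NFAM1+/+, were -1.62 ± 0.33 for Nos2 (log2; adjusted p = 0.139, limma) and -0.65 ± 0.17 for Acod1 (adjusted p = 0.247). The Nos2 value rests on the 6 to 27 reads given above and was -0.19 (adjusted p = 0.919) with 1 CPM added before the log. It passed the threshold without stimulated library 26 or 10 (adjusted p = 0.0374 and 0.0349), which left the difference at -1.62 and changed only the estimate of spread. With stimulus the differences were -0.80 ± 0.33 for Nos2 (adjusted p = 0.371), -0.68 ± 0.29 for Slc7a2 (adjusted p = 0.392) and -0.32 ± 0.17 for Acod1 (adjusted p = 0.462). Both NFAM1-/- libraries again lay lowest for each of these genes, and for Arg2 too. How many of all genes were ordered in this way was not counted, so the order is given as a description. Library 26 decides the size: without it the Nos2 difference was -0.27 and that of Slc7a2 -0.17, and without library 10 they were -1.33 and -1.18, past the threshold (adjusted p = 0.0294 and 0.0172). Ass1, Gch1, Arg2 and Ido1 had adjusted p of 0.499 to 0.903 with stimulus. Ido1 had its highest value in an NFAM1-/- library, and its difference was 0.40 ± 0.42 (95% interval -0.56 to 1.35).

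At 24 h the 2 readings of the labels gave different answers. By the titles, Acod1 without stimulus was at 25.1 and 40.7 CPM in NFAM1-/- and 81.3 and 90.6 CPM in NFAM1+/+ cells, a difference of -1.43 ± 0.18 on the log2 scale that passed the rule (adjusted p = 0.0134, limma; 0.222% of all genes called). The marker sums of most lists divided the same libraries. In those titled NFAM1-/- and NFAM1+/+ respectively, dendritic cell genes summed to 163 and 191 against 90.4 and 98.9 CPM. B cell genes summed to 193 and 198 against 127 and 135 CPM, and neutrophil genes to 955 and 1178 against 668 and 823 CPM. Progenitor, T cell and NK cell sums were also higher in those titled NFAM1-/-. Monocyte genes were lower there, at 29390 and 31710 against 33010 and 33180 CPM, as were erythroid genes. Macrophage sums and those of eosinophils, basophils and mast cells overlapped. The part of these sums in the Acod1 difference was not tested. By the tags the NFAM1-/- libraries were the ones at 40.7 and 90.6 CPM and the difference was 0.43 ± 0.52 (adjusted p = 1; 0.00822% called). With stimulus, Nos2 by the titles was at 696 and 1094 CPM in NFAM1-/- and 1759 and 2623 CPM in NFAM1+/+ cells, a difference of -1.30 ± 0.35 (adjusted p = 0.0966; 0.115% called, 14 genes, against 0 to 214 when 1 library was left out), and by the tags 0.61 ± 0.57 (adjusted p = 0.999; 0% called). Slc7a2 differed by -0.92 ± 0.19 by the titles (adjusted p = 0.0587) and by 0.42 ± 0.35 by the tags (adjusted p = 0.999). Ass1 without stimulus was at 45.2 and 55.9 CPM in libraries titled NFAM1-/- and 68.1 and 73.1 CPM in those titled NFAM1+/+. Its difference was -0.49 ± 0.10 by the titles (adjusted p = 0.074, limma) and -0.21 ± 0.19 by the tags. By the titles, Ass1 with stimulus and Arg2, Gch1 and Ido1 in either condition had adjusted p of 0.496 to 0.897 by limma. Only libraries 43, 45, 55 and 57 carry labels that agree, 1 for each genotype and stimulus, and gave -0.997 for Acod1 without stimulus, -0.69 for Nos2 and -0.50 for Slc7a2 with stimulus, with no test.

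Over all 16 libraries, with stimulus and time as groups and genotype as an added term, Nos2 was lower in NFAM1-/- cells by the titles, by 1.10 ± 0.20 on the log2 scale (adjusted p = 0.0174, limma), and was 1 of 5 genes called (0.0406%). Acod1 differed by -0.66 ± 0.15 (adjusted p = 0.0408), under 2-fold, and Slc7a2 by -0.55 ± 0.15 (adjusted p = 0.0802). Ass1 differed by -0.22 ± 0.07 (adjusted p = 0.12), and Arg2, Gch1 and Ido1 had adjusted p of 0.36 to 0.901, all by limma. By the tags the values were -0.30 ± 0.34 for Nos2, -0.10 ± 0.22 for Acod1 and -0.18 ± 0.20 for Slc7a2 (adjusted p of 0.83, 0.926 and 0.83), and 0% of genes were called. The fit over 16 libraries includes the 8 libraries at 6 h. There these genes were already lower at an unadjusted p below 0.05 by limma without stimulus, with it or both, so the fit is not a separate test. Alternatives to the fits at 24 h and over 16 libraries were run for these genes only. The Acod1 call at 24 h by the titles was lost without library 44, at -1.35 (adjusted p = 0.0982). The Nos2 call by the titles was lost without library 4, at -0.99 (under 2-fold, adjusted p = 0.0399), and with 1 CPM added before the log, at -0.63 (adjusted p = 0.0624). Nfam1 at 24 h was at 391 and 441 CPM without and 201 and 223 CPM with stimulus in the libraries titled NFAM1-/-, against 463 and 495 CPM and 252 and 271 CPM in those titled NFAM1+/+, while by the tags the genotypes overlapped. At 24 h, 1455 of 12164 genes without and 2163 with stimulus had an unadjusted p below 0.05 by limma by the titles. By the tags 233 and 342 genes did. Since the deletion leaves exons that are counted, and the genotypes overlapped at 6 h with stimulus, which reading is right was not settled here.

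**Figure D3:**
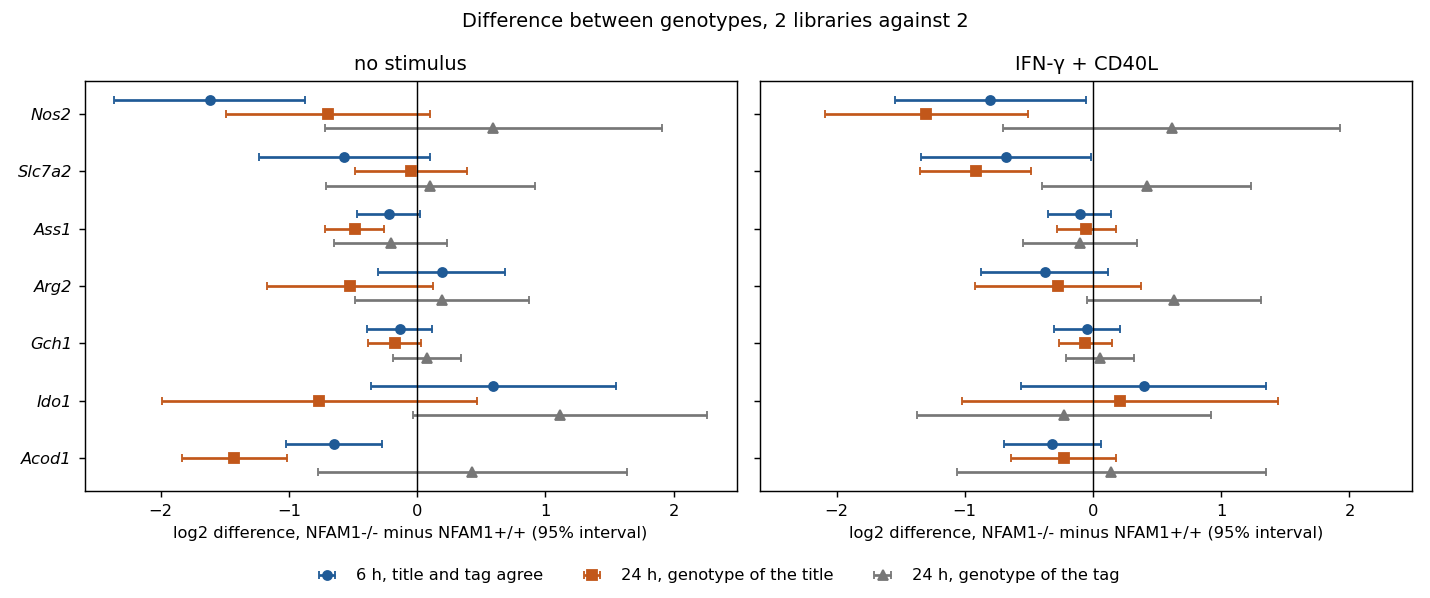
Difference between genotypes for each gene, NFAM1-/- minus NFAM1+/+, on the log2 scale with 95% intervals, without stimulus (left) and with IFN-γ plus CD40L (right). Circles are 6 h, squares 24 h by the genotype of the title and triangles 24 h by that of the tag. For Nos2, Slc7a2 and Acod1 the 6 h and title values lie below 0, and the tag values above 0 (for Nos2 with stimulus -0.80, -1.30 and 0.61).

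Other genes of these pathways were followed as 6 lists. Each list held called rises and falls at both times. Of all genes tested, 18.9% rose and 20.3% fell at 6 h, and 14.6% rose and 18.2% fell at 24 h. A count near these shares does not set a list apart. Of 23 tested arginine and polyamine genes, 5 rose and 5 fell at 6 h, and 6 rose and 5 fell at 24 h. At 6 h the largest rises were of Gatm (arginine:glycine amidinotransferase of creatine synthesis, log2 2.70), Aldh18a1 (pyrroline-5-carboxylate synthase, 1.82) and Slc3a2 (the CD98 heavy chain, 1.48), and among the falls were Slc7a6 (a cationic amino acid exchanger, -3.06) and Srm (spermidine synthase, -2.68). At 24 h Gatm (2.66), the arginine transporter Slc7a1 (1.68) and Azin2 (1.43) led the rises, and Pycr1 (-2.33), Paox (a polyamine oxidase, -2.27) and Slc7a6 (-1.67) the falls. Some of these levels were low. With and without stimulus respectively, Pycr1 at 24 h was at 0.157 to 0.286 and 0.892 to 1.49 CPM, and Azin2 at 1.92 to 3.25 and 0.766 to 1.17 CPM. Srm at 6 h was at 0.592 to 0.990 and 4.07 to 5.25 CPM. At such levels the size of a change depends on the constant added before the log. The median log2 fold change of the list was 0.079 at 6 h and -0.30 at 24 h, beside -0.125 and 0.017 for all genes tested.

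Of 5 tested genes of tetrahydrobiopterin synthesis, 1 rose and 1 fell at each time. The fall, in log2 fold change, was of Spr (sepiapterin reductase, -1.51) at 6 h and of Qdpr (dihydropteridine reductase, -1.09) at 24 h. Unlike Gch1, Spr in stimulated cells was higher at 24 h, at 27.4 to 40.6 CPM, than at 6 h, at 3.76 to 5.14 CPM. The list medians were -0.37 and -0.14.

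Of 13 tryptophan genes, 5 rose and 1 fell at 6 h, and 4 rose and 3 fell at 24 h. Wars (tryptophanyl-tRNA synthetase) was among the largest rises at both times (5.03 and 4.32), as was Kynu (kynureninase, 4.42 and 4.56). Slc7a8, an amino acid transporter, rose at 6 h (3.54) and Ahrr, the aryl hydrocarbon receptor repressor, at both times (2.60 and 2.14). Kyat1, a kynurenine aminotransferase, fell at both times (-1.13 and -1.10), and Haao (-2.27) and Kmo (kynurenine monooxygenase, -2.13) fell at 24 h. Kynu thus kept a high level at 24 h, 148 to 268 CPM, when Ido1 was below 5 CPM. The list medians were 0.66 and 0.57.

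Of 28 genes of itaconate and the tricarboxylic acid cycle, 1 rose and 6 fell at 6 h, and 2 rose and 3 fell at 24 h. The rise at 6 h was of Slc25a22, a mitochondrial glutamate carrier (5.03), which together with Slc25a10, the dicarboxylate carrier, also rose at 24 h (1.65 and 1.62). Idh1 (isocitrate dehydrogenase) fell most at both times (-3.60 and -3.17). At 6 h Clybl, an enzyme of itaconate breakdown (-1.84), and Slc25a10 (-1.19) came next, and at 24 h Idh2 (-1.92) and Suclg2 (a succinyl-CoA ligase subunit, -1.42). The list medians were -0.33 and 0.29.

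Of 13 genes known from alternative activation, 3 rose and 5 fell at 6 h, and 3 rose and 8 fell at 24 h. Klf4 (2.97 and 3.11), Pdcd1lg2 (2.30 and 2.94) and Il4ra (2.31 and 1.02) rose at both times. The falls were led by Pparg (-4.66), Cd163 (-2.80) and Ccl24 (-1.82) at 6 h, and by Mrc1 (the mannose receptor, -8.97), Cd163 (-8.65) and Mgl2 (-6.77) at 24 h. The list medians were -0.49 and -1.87.

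Of 17 genes of the upstream signalling and transcription factors, 9 rose and 2 fell at 6 h, and 11 rose and 2 fell at 24 h. Socs1, a feedback inhibitor of JAK kinases, rose by 9.43 and 6.28, and Irf1 by 6.50 and 5.35. Cd40 rose by 4.62 and 5.27. Cebpd (-2.66 and -2.77) and the receptor gene Ifngr1 (-2.38 and -1.84) fell. The list medians were 1.08 and 1.56. The lists were chosen with results of these data known, so their counts are a description.

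**Figure D4:**
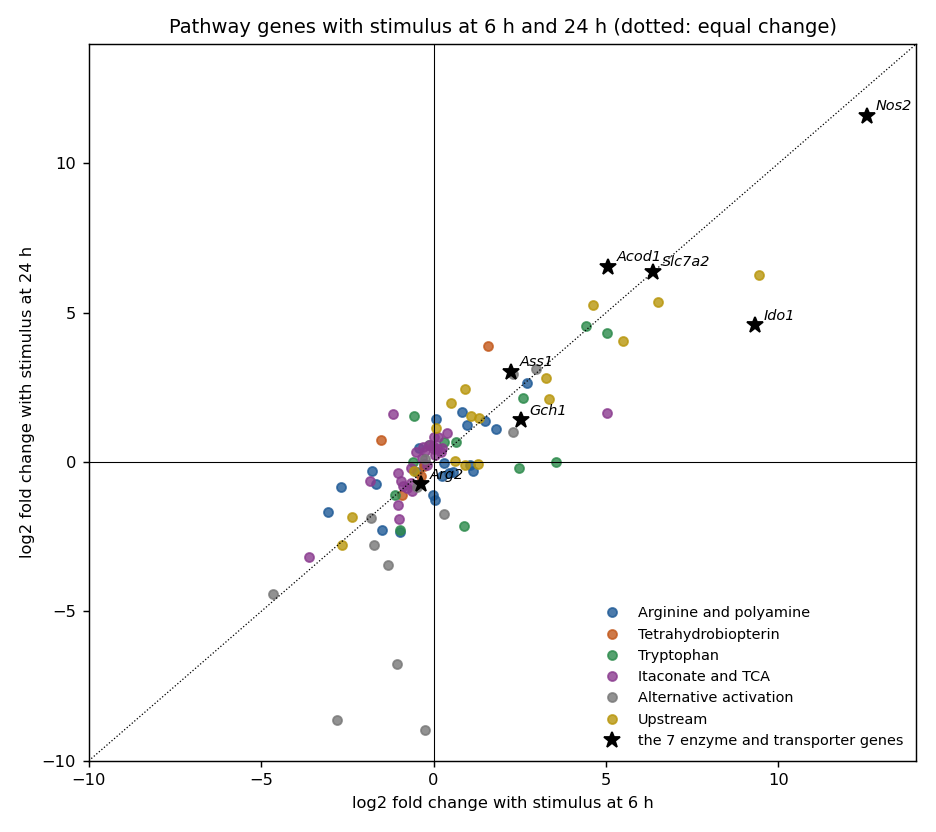
Log2 fold change with stimulus at 6 h (horizontal) and 24 h (vertical) for the genes of 6 pathway lists (coloured points) and the 7 enzyme and transporter genes (stars). The dotted line marks equal change. Ido1 lies well below it (9.32 and 4.58), Acod1 above it (5.06 and 6.54), and Slc7a2 on it (6.37 and 6.38).

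Across the 16 libraries the genes most like each other in pattern were Gch1 and Ido1 (Pearson r = 0.984 of log2 CPM) and Nos2 and Slc7a2 (r = 0.981). Arg2 ran against the other 6 genes, with r of -0.48 to -0.74. Among 12306 genes, the closest to Nos2 was Ccl5 (r = 0.999), followed by Samd4b and Rasa4 (both 0.995). Acod1 was closest to N4bp1 (0.999), Il2rg (0.996) and Nfkbie (0.995), Slc7a2 to AA467197 (0.995), Snd1 (0.995) and Klf4 (0.993), and Ass1 to Vdac3 (0.996), with Slc2a6 also among its closest (0.993). The genes closest to Gch1 were Cdyl2, Chmp4b and Cd86 (all 0.994), those closest to Ido1 were Scfd1 (0.991), Pttg1 (0.991) and Creb3 (0.990), and those closest to Arg2 were Ajuba (0.880), Zcchc14 (0.854) and Spire1 (0.850). The points are libraries in 4 groups of stimulus and time, so these values mostly describe the pattern of the group means, and they share depth and scaling.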

How the data were processed

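Monocyte RNA was sequenced as non-stranded polyA libraries (101x2 paired reads), so reads of a gene and of an overlapping antisense transcript cannot be told apart. Per the labels and methods, the authors used FastQC, STAR, Rsubread, edgeR and limma, with builds GRCm39 and mm39. The deposited values are log2 CPM after the authors' normalization, with 0.5 reads added; whole reads came back for 100% of values (tolerance 0.01 reads). Depth was 48295939 to 88514341 reads on listed genes. The ratio of these reads to the authors' scaled size was 0.756 at the lowest and 0.788 at the highest without stimulus, and between 0.970 and 1.32 with it.

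Here limma 3.58.1 (R 4.3.3, empirical Bayes with trend) was fitted to the deposited log2 values across all genes, with Benjamini-Hochberg adjustment. Genotypes were compared over 8 libraries at 6 h (genes at 1 CPM or more in 2 libraries; 12111 tested), stimulus and time over 16 libraries (1 CPM or more in 4; 12306 tested). The fits of genotype at 24 h and over 16 libraries were added after the data were seen. Alternatives were another filter, scaling, weights, trend, pseudocount and fold limit, and leaving out each library. All chosen genes were named, with the 3 genes most correlated with each and up to 3 called rises and falls per list; a few genes that this rule names are not reported here. The genes and lists were chosen with earlier results of these data known. The steps were tested on simulated data.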

Additional observations from a re-analysis of the deposited data

Results flagged for a closer look

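In 3 of 28 sets of 4 libraries (7 genes by stimulus and time), 1 library lay far from the other 3 by Dixon's ratio, where chance gives about 1 in 20. Library 44 was high for Nos2 in unstimulated cells at 24 h, at 0.858 CPM, library 56 was low for Ido1 with stimulus at 24 h, at 3.62 CPM, and library 26 was high for Acod1 with stimulus at 6 h, at 7851 CPM. Libraries 44 and 56 are among those whose title and tag disagree on genotype. The response to stimulus differed between 24 h and 6 h, by a test of the difference itself, for Ido1 (-4.73 on the log2 scale), Gch1 (-1.13), Acod1 (1.48) and, under 2-fold, Ass1 (0.79).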

How the results depend on the processing

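The 24 stimulus results were those of the 6 genes that rose, at 6 h in each genotype and pooled, and at 24 h pooled. They kept their call under all 17 to 27 alternatives, except that Ido1 had no value over 16 libraries when a mean of at least 5 CPM was required. The 6 h results of both fits share the same libraries. Nos2 and Ido1 passed the filter only through their stimulated libraries, so a difference was built into their results. No paired analysis was run. The library numbers in the titles do not repeat between groups, so they do not show whether libraries of different groups came from the same mice.

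The number of the 7 genes called moved as follows. For 24 h against 6 h with stimulus it was 2, and 1 with a mean of at least 5 CPM, since Ido1 was then not tested; over all alternatives it was 1 to 3. It was 5 to 7 for stimulus at each time, 6 to 7 for stimulus in NFAM1-/- cells, and 2 to 4 for 24 h against 6 h without stimulus and for stimulus by time. For genotype by the titles at 24 h it was 1 without stimulus and 0 without the trend, and 0 with stimulus and 1 with 1 CPM added. Over 16 libraries by the titles it was 1, against 0 without the trend, 0 with 1 CPM added and 2 with no fold limit. Leaving out 1 library gave 0 to 1 for genotype at 6 h without and 0 to 2 with stimulus, and 0 to 1 for each of the 3 title comparisons. The title calls end without library 44 (Acod1, adjusted p = 0.0982) and library 4 (Nos2, 16 libraries), and without the trend (Acod1 adjusted p = 0.203, Nos2 0.0603). The cause was not tested.

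Values that turned sign were small in most cases. Quantile scaling gave Arg2 0.20 with stimulus in NFAM1+/+ cells. Own totals gave 0.085 for Acod1 at 24 h against 6 h with stimulus and 0.028 for Arg2 in the stimulus by time difference. Adding 1 CPM turned the genotype by stimulus difference to -0.61 for Nos2 and 0.30 for Ido1, and the stimulus by time difference to 0.48 for Nos2 and -0.12 for Slc7a2 (-0.020 with voom weights). Leaving out 1 library gave these ranges. For genotype at 6 h they were -0.13 to 0.52 (Arg2) and -0.043 to 1.23 (Ido1) without stimulus, and -0.28 to 0.071 (Ass1) and -0.18 to 0.089 (Gch1) with it. For genotype by stimulus they were -0.058 to 0.29 (Ass1), -0.61 to 0.39 (Slc7a2), -0.043 to 0.23 (Gch1) and -0.84 to 0.44 (Ido1). Ido1 at 24 h against 6 h without stimulus ran from -0.52 to 0.15, and the Slc7a2 stimulus by time difference from -0.18 to 0.29. By the titles, Slc7a2 at 24 h without stimulus ran from -0.20 to 0.11. By the tags, the 24 h values without stimulus ran from -0.071 to 1.26 (Nos2), -0.027 to 0.23 (Slc7a2) and -0.42 to 1.28 (Acod1), those with stimulus from -0.055 to 1.28 (Nos2) and -0.15 to 0.99 (Slc7a2), and Acod1 over 16 libraries from -0.30 to 0.0083.

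Over all genes, own totals moved the share of rises among calls from 48.2% to 21.7% at 6 h, from 44.5% to 30.7% at 24 h, from 49.3% to 69.7% for time with stimulus and from 42.6% to 68.1% for stimulus by time. A mean of at least 5 CPM left 2946 of 4830 calls at 6 h and 2247 of 4028 at 24 h; no fold limit gave 9596 and 9143. Genotype calls at 6 h without stimulus were 8, and 0 to 15 when 1 library was left out; with stimulus they were 4, and 0 to 135, the most without library 10. By the titles at 24 h they were 27 without stimulus, and 9 to 55 when 1 library was left out. With stimulus they were 14, and 214 without library 55, 93 without library 57, 5 without library 56 and 0 without library 58 or with no filter.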
